A study of Mus musculus with 18 samples.

Results

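The lysosome genes described here are 35 genes for the enzymes, membrane proteins, proton pump and master regulator of the lysosome, out of 55536 gene IDs counted in the libraries. They were taken from a list by symbol, after the gene IDs were matched to GENCODE M21, and all 35 were found and had enough counts to be tested. The list holds 9 proteases, 6 glycosidases, 6 proteins of lipid handling (Grn, the precursor of the granulins, is placed with them), 8 membrane proteins, 5 subunits of the proton pump and the transcription factor Tfeb. Bulk poly(A) RNA was sequenced from cultures of BALB/c mouse bone marrow that were grown for 4 days so that myeloid cells would form. The 6 groups of 3 libraries were Cysltr1-/- and WT marrow with GM-CSF (40 ng/mL) and 50% medium conditioned by EMT6 cells for 24 h, Cysltr1-/- and WT marrow with GM-CSF and IL-6 (40 ng/mL), and Cysltr1-/- and WT marrow with GM-CSF alone. Every group thus received GM-CSF, a growth factor for granulocytes and macrophages, and each library came from marrow pooled from 3 mice. EMT6 is a mouse mammary carcinoma line, IL-6 is a cytokine that signals through STAT3, and Cysltr1 encodes a receptor for cysteinyl leukotrienes. The ages of the mice, the allele and the cells that carry the deletion are not given in the sources used here. The labels number the 3 libraries of a group without saying that they came from separate cultures, so p-values measure the spread between these libraries, which may be technical.

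Lysosomes are acidic organelles in which proteins, glycans and lipids taken up from outside or delivered by autophagy are broken down. A proton pump of many subunits, the V-ATPase, acidifies the lumen, cathepsins cut proteins there, and glycosidases and lipid hydrolases take apart sugar chains and membrane lipids. Macrophages and osteoclasts are rich in these enzymes, dendritic cells use some of them to prepare peptides for presentation, and the factor Tfeb, held in the cytoplasm when nutrients are plentiful, turns many of the genes on through an E-box-like motif in their promoters.

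Cysltr1 reads do not show the genotype named in the labels. The Cysltr1 level was 75.2, 77.4 and 78.7 CPM (counts scaled to a library of 1 M) in the libraries labelled Cysltr1-/- with GM-CSF alone, against 61.2, 57.6 and 62.8 CPM in WT. It was 90.8, 90.8 and 87.7 CPM against 80.5, 81.7 and 80.1 CPM with IL-6, and 6.20, 9.13 and 6.70 CPM against 3.92, 4.16 and 4.19 CPM with EMT6 medium. A count over the whole gene cannot show a deletion inside it, so the genotype is given here as labelled. Reads spread evenly over the genome would make up 37.6% of the Cysltr1 counts in the labelled Cysltr1-/- EMT6 medium libraries and 36.8% in the WT ones. CPM values are scaled by TMM, a normalisation that assumes that most genes do not change. Libraries held 9.58 to 32.0 M gene counts, and reads in no annotated feature averaged 50.2% of the total in labelled Cysltr1-/- EMT6 medium libraries and 36.2% in WT EMT6 medium libraries, against 14.2% to 19.5% in the other 4 groups. If those stray reads lay evenly over the genome, they would make up at most 5.19% of the counts of a lysosome gene in any group, a value reached by Atp6v1h in labelled Cysltr1-/- EMT6 medium cultures.

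The motif bound by Tfeb and its relatives has the core TCACGTGA, and the plain E-box CACGTG lies inside it, so each TCACGTGA is also counted as a CACGTG. In the RefSeq windows of 300 bases around the starts of genes (build GRCm38.p6, both strands searched), TCACGTGA occurred in 6 of the 28 members with a window, Atp6v0d1, Atp6v1a, Ctsa, Ctsd, Gla and Mcoln1. Of all 27025 genes with a window, 304 (1.12%) held it. CACGTG occurred in 9 of 28 members, the same 6 with Ctsl, Glb1 and Lamp1, against 8.09% of all genes. A longer form of 10 bases, with TCACGTGA inside it, was also searched. That form occurred in 0 of the 28 members and in 100 (0.37%) of all 27025 genes. A match is a description of the letters and not of binding. Asah1, Atp6v0d2, Atp6v1b2, Atp6v1h, Ctsb, Ctsh and Npc1 had no window. The 7 stretches below, each of 100 bases read 5′ to 3′ on the strand of the gene, belong to 7 of the 9 members with CACGTG. The stretches of Ctsa and Glb1, which fell with EMT6 medium in WT under TMM scaling, are not shown, so those printed lean to genes that rose. TCACGTGA, or CACGTG at sites without the flanking bases, stands in capitals.
The Gla stretch (chrX:134601156-134601255, minus strand) holds the motif in 2 copies.
Gla: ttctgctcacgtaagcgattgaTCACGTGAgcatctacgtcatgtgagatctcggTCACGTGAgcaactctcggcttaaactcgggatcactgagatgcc
The Ctsd stretch (chr7:142387873-142387972, minus strand) has 1 copy.
Ctsd: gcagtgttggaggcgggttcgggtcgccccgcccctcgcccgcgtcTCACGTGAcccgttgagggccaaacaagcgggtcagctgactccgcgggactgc
The Atp6v1a stretch (chr16:44139338-44139437, minus strand) has 1 copy.
Atp6v1a: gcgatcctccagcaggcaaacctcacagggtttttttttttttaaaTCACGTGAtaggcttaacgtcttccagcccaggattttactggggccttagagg
The Mcoln1 stretch (chr8:3500427-3500526, plus strand) has 1 copy beside a plain E-box.
Mcoln1: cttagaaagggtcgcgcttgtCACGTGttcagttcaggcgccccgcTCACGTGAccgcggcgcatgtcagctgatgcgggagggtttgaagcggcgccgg
The Atp6v0d1 stretch (chr8:105566055-105566154, minus strand) has 1 copy that spans the start.
Atp6v0d1: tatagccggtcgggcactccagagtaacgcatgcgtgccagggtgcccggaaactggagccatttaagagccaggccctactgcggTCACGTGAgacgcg
The Lamp1 stretch (chr8:13159071-13159170, plus strand) has 4 plain E-boxes.
Lamp1: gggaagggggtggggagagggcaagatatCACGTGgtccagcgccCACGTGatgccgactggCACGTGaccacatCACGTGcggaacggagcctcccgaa
The Ctsl stretch (chr13:64370671-64370770, minus strand) has 1 plain E-box.
Ctsl: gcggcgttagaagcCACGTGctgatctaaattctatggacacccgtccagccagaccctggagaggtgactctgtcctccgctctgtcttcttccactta
With EMT6 medium in WT marrow, described further on, Gla, Atp6v1a, Mcoln1, Lamp1 and Ctsl of the 9 members with CACGTG rose and Glb1 fell. Ctsa and Atp6v0d1 fell under TMM scaling and changed sign with library sizes alone, and Ctsd did not pass the test. Among members whose windows lacked CACGTG, Cd63, Cd68, Lipa, Neu1, Npc2 and Tfeb rose under all 9 ways of scaling, filtering and fitting. Ctss, Grn, Gusb, Laptm5, Man2b1 and Scarb2 fell under all 9. Of genes with a mean of 5 CPM or more, 16.5% rose and 73.1% fell in that comparison. A link between the motif and the changes was not tested.

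The lysosome genes took a sizeable share of the RNA in every culture. In the libraries labelled Cysltr1-/- they held together 3.30% of gene counts with EMT6 medium, 3.67% with IL-6 and 3.24% with GM-CSF alone. The shares in WT libraries were further apart, at 4.65% with EMT6 medium, 3.66% with IL-6 and 3.08% with GM-CSF alone. Psap, whose product is cut into the saposins that help hydrolases reach lipids, alone held 0.932% to 1.40% of gene counts. Per length of annotated exon, Psap had the highest level of the 35 genes in each of the 6 groups, at 2426 to 6065 CPM per kb. Ctsd, the main aspartic protease of the lysosome, ranked 2 or 3 in every group, at 732 to 1648 CPM per kb. Ctsl, a cysteine protease, ranked 12 of 35 per length in WT GM-CSF cultures and 2 of 35 in WT EMT6 medium cultures, where it reached 1220 CPM per kb. Tfeb, a transcription factor, lay near the bottom at 8.65 to 14.9 CPM per kb, ranking 29 to 35 of 35.

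**Figure D1:**
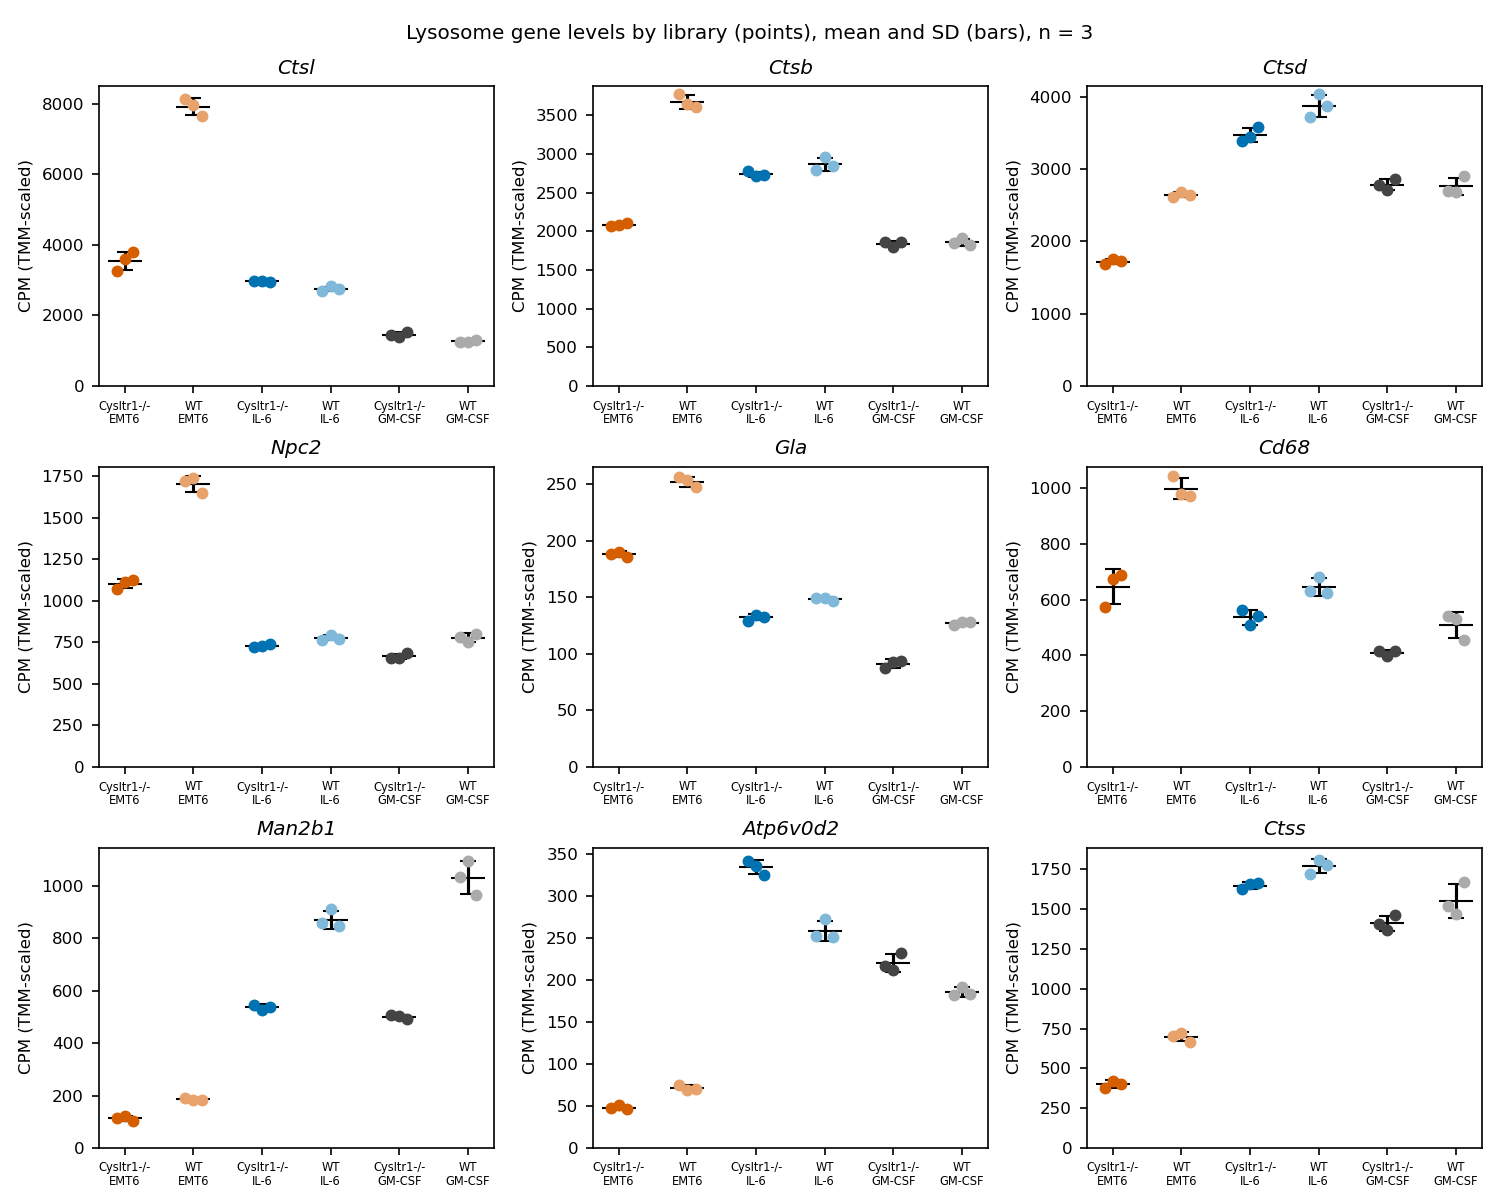
Levels of 9 lysosome genes in each library, in TMM-scaled CPM (y axis, linear from 0), for the 6 groups on the x axis. Points are libraries, the horizontal bar is the group mean and the whiskers are 1 SD (n = 3); Ctsl in WT EMT6 medium cultures stands at 7659 to 8137 CPM, above every library of the other 5 groups, and Man2b1 is lowest in both EMT6 medium groups.

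IL-6 raised a broad set of lysosome proteases and few genes fell. In WT cultures 18 of the 35 genes rose and 2 fell with IL-6 relative to GM-CSF alone, with an adjusted p under 0.05 by edgeR's quasi-likelihood test and Benjamini-Hochberg adjustment over 28334 genes. Of all genes tested 10.4% rose and 11.3% fell, and of the 11175 genes with a mean of 5 CPM or more over the 18 libraries (the better expressed genes) 23.3% rose and 24.0% fell, so a larger share of the members rose. The median log2 fold change was 0.19 over the members, -0.03 over all genes tested and 0.01 over the better expressed genes. Among the cultures labelled Cysltr1-/-, 17 genes rose and 1 fell, against 5.54% and 8.77% of all genes tested and 11.3% and 20.4% of the better expressed genes. All 20 calls in WT held in each of 9 ways of scaling, filtering and fitting the data. Under the Cysltr1-/- label, 11 rises and 1 fall held in all 9. The 17 rises there came to 11 without replicate 2 of the GM-CSF cultures of that label.

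Ctsl had 2694, 2825 and 2738 CPM in WT IL-6 cultures, against 1245, 1237 and 1299 CPM in WT GM-CSF cultures. The 2 groups were far apart, a 2.18-fold rise (log2 1.13 ± 0.05 SE, adjusted p = 4.32e-23, edgeR quasi-likelihood test). Where the label was Cysltr1-/-, Ctsl also rose, with 2988, 2978 and 2959 CPM under IL-6 and 1440, 1386 and 1520 CPM under GM-CSF alone (log2 1.04 ± 0.05). Ctsb, another cysteine protease, had 2793, 2963 and 2843 CPM in WT IL-6 cultures and 1844, 1908 and 1823 CPM in WT GM-CSF cultures (log2 0.63 ± 0.04). Its rise in cultures labelled Cysltr1-/- was 0.57 ± 0.04, with no overlap between libraries in either genotype.

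Of the 9 proteases 7 rose in WT with IL-6 and none fell, beside 23.3% and 24.0% of the better expressed genes. Ctsd reached 3717, 4033 and 3872 CPM in WT IL-6 cultures, against 2704, 2686 and 2902 CPM in WT GM-CSF cultures (log2 0.49 ± 0.04). Ctsk, the collagen-cutting protease of osteoclasts, had 44.9, 46.7 and 46.2 CPM in WT IL-6 cultures and 34.4, 38.5 and 34.5 CPM in WT GM-CSF cultures (log2 0.36 ± 0.07). For cultures labelled Cysltr1-/-, the Ctsk libraries overlapped, at 42.5, 43.1 and 42.7 CPM with IL-6 and 43.9, 41.1 and 49.3 CPM without it. The other rises in WT, Ctsa, Ctss and Tpp1, were 0.19 to 0.37 on the log2 scale. Ctss, an endopeptidase of antigen-presenting cells, lost its call without replicate 2 of WT GM-CSF, where its change was 0.13 (adjusted p = 0.0733, edgeR quasi-likelihood test). Ctsh and Ctsz did not pass the test in either genotype with IL-6.

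Among lipid-handling genes 3 of 6 rose in WT with IL-6, beside 23.3% of the better expressed genes. Npc1, the membrane protein that exports cholesterol from the lysosome, had 289, 306 and 282 CPM in WT IL-6 cultures and 183, 208 and 164 CPM in WT GM-CSF cultures (log2 0.66 ± 0.06). Its partner Npc2, which carries cholesterol to it in the lumen, had 767, 795 and 772 CPM in WT IL-6 cultures and 781, 751 and 802 CPM in WT GM-CSF cultures. The Npc2 libraries overlapped and the log2 change in WT was 0.00. Lipa, the lysosomal acid lipase, did not pass the test in WT. In cultures labelled Cysltr1-/- Lipa fell, to 197, 182 and 185 CPM with IL-6, against 243, 234 and 242 CPM with GM-CSF alone (log2 -0.35 ± 0.05).

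The glycosidases held the only 2 falls of WT with IL-6. Gusb, the beta-glucuronidase, had 153, 155 and 150 CPM in WT IL-6 cultures and 182, 193 and 183 CPM in WT GM-CSF cultures (log2 -0.28 ± 0.05). Man2b1, the acidic alpha-mannosidase, had 857, 910 and 847 CPM in WT IL-6 cultures and 1032, 1094 and 967 CPM in WT GM-CSF cultures (log2 -0.24 ± 0.05). Neither overlapped between groups. Gla, the alpha-galactosidase, rose instead in both genotypes, by 0.54 ± 0.05 in cultures labelled Cysltr1-/- and 0.22 ± 0.05 in WT on the log2 scale.

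Among membrane proteins, 5 of 8 rose in WT with IL-6, beside 23.3% of the better expressed genes. Cd68, a glycoprotein of macrophage lysosomes, had 631, 682 and 625 CPM in WT IL-6 cultures and 542, 532 and 456 CPM in WT GM-CSF cultures (log2 0.34 ± 0.06). Cd63, a tetraspanin of late endosomes and lysosomes, had 277, 283 and 284 CPM in WT IL-6 cultures, against 240, 231 and 247 CPM in WT GM-CSF cultures (log2 0.23 ± 0.04). Mcoln1, the calcium channel of the lysosomal membrane, had 104, 101 and 95.1 CPM in WT IL-6 cultures, against 90.7, 91.8 and 73.9 CPM in WT GM-CSF cultures, and its log2 change of 0.23 was 0.13 without replicate 3 of WT GM-CSF (adjusted p = 0.135, edgeR quasi-likelihood test). Lamp1, one of the most abundant lysosomal membrane proteins, did not pass the test. Lamp2, its close relative, rose by 0.23 ± 0.04 in WT.

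Of the 5 pump subunits 2 rose in WT with IL-6, beside 23.3% of the better expressed genes. Atp6v0d2, the d subunit form found in macrophages and osteoclasts, had 252, 273 and 251 CPM in WT IL-6 cultures and 182, 192 and 183 CPM in WT GM-CSF cultures (log2 0.48 ± 0.05). It had 342, 336 and 326 CPM against 217, 212 and 232 CPM in cultures labelled Cysltr1-/- (log2 0.60 ± 0.05). Atp6v0d1, the d subunit of most tissues, had 326, 345 and 329 CPM in WT IL-6 cultures and 339, 328 and 321 CPM in WT GM-CSF cultures. The 2 d subunit genes thus parted under IL-6, since the Atp6v0d1 libraries overlapped in both genotypes. Tfeb did not pass the test with IL-6, with a log2 change of -0.08 in cultures labelled Cysltr1-/- and -0.11 in WT.

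**Figure D2:**
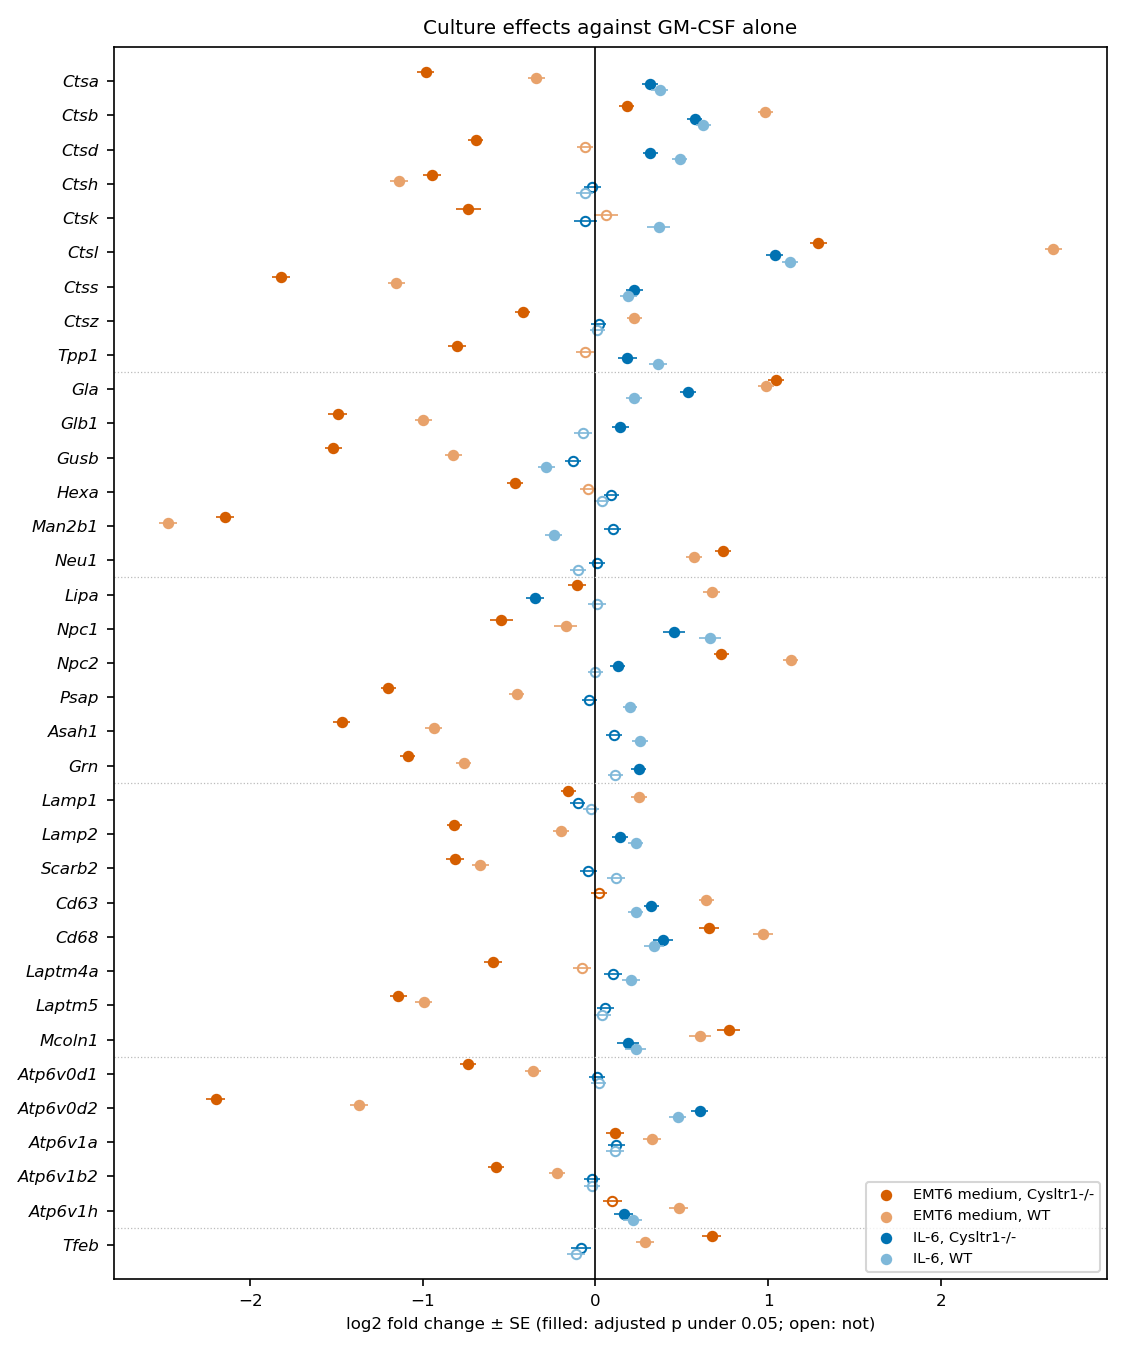
Log2 fold changes (x axis) of the 35 lysosome genes, in rows ordered by role with dotted lines between roles, for EMT6 medium and IL-6 against GM-CSF alone in each genotype, from the fit with TMM scaling. Bars are standard errors and filled points have an adjusted p under 0.05; IL-6 values lie between -0.35 and 1.13, and EMT6 medium values spread from -2.48 to 2.65.

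EMT6 medium split the lysosome genes. In WT cultures 14 of the 35 rose and 16 fell relative to GM-CSF alone, with Ctsl up 6.28-fold and Man2b1 down 5.57-fold. Among the cultures labelled Cysltr1-/-, 9 rose and 24 fell. Of all genes tested 54.3% rose and 32.9% fell in cultures labelled Cysltr1-/-, and 46.8% rose and 34.5% fell in WT. Of the better expressed genes 19.3% rose and 70.4% fell in cultures labelled Cysltr1-/-, and 16.5% rose and 73.1% fell in WT. In cultures labelled Cysltr1-/- the median log2 change was -0.59 over the members, 0.83 over all genes tested and -0.64 over the better expressed genes. In WT it was -0.06 over the members, 0.49 over all genes tested and -0.59 over the better expressed genes. These comparisons use the same GM-CSF libraries as the IL-6 ones, so the values of both are given side by side and were not tested against each other.

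The scaling moved all EMT6 medium changes by about the same amount. Scaled by library size alone, they were 0.62 higher on the log2 scale in cultures labelled Cysltr1-/- and 0.50 higher in WT. Under that scaling 15 members rose and 15 fell in cultures labelled Cysltr1-/-, and 24 rose and 10 fell in WT. The shares over all genes given above are those of TMM scaling, so they do not apply to these counts. With the size factors of DESeq2 the changes were shifted by -0.27 in cultures labelled Cysltr1-/- and -0.14 in WT. Each fit with 1 library left out was filtered and scaled anew. Those fits moved the called EMT6 medium changes by medians of -0.245 to -0.1966 in cultures labelled Cysltr1-/- and -0.156 to -0.0004 in WT. Of the calls in WT, 13 rises and 10 falls held in all 9 settings. Atp6v0d1, Atp6v1b2, Ctsa, Lamp2, Npc1 and Psap, which fell under TMM scaling, changed sign with library sizes alone, and the rise of Ctsz lost its call with DESeq2 size factors. Under the Cysltr1-/- label, 7 rises and 15 falls held in all 9. The order of the 35 genes was the same under the 4 scalings in the plot of scalings.

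**Figure D3:**
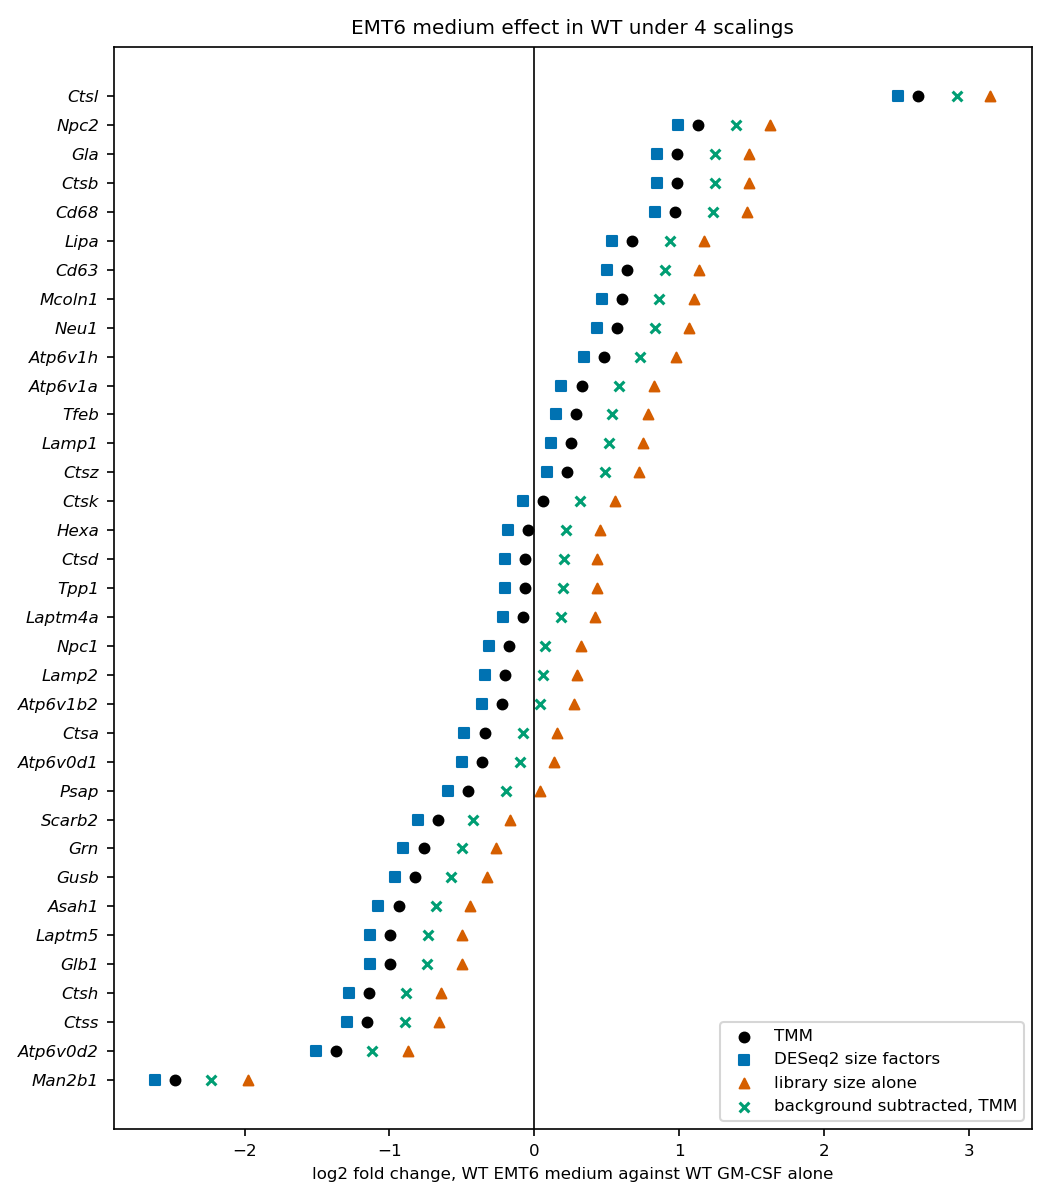
Log2 fold changes (x axis) of the 35 lysosome genes in WT EMT6 medium cultures against WT GM-CSF cultures, under 4 scalings of the same counts; genes run down the page from the highest to the lowest change under TMM. Ctsl stays at the top and Man2b1 at the bottom under each scaling, and genes in the middle cross 0 with library size alone.

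The proteases parted most clearly with EMT6 medium. Ctsl (chr13:64359337-64370890, minus strand, mm10) had 8137, 7955 and 7659 CPM in WT EMT6 medium cultures and 1245, 1237 and 1299 CPM in WT GM-CSF cultures (log2 2.65 ± 0.05, adjusted p = 9.12e-38, edgeR quasi-likelihood test). Ctsb (chr14:63122462-63145923, plus strand, mm10) had 3780, 3645 and 3604 CPM, against 1844, 1908 and 1823 CPM in the same groups (log2 0.98 ± 0.04). Both stood well clear of the GM-CSF libraries. Ctss had 706, 721 and 666 CPM in WT EMT6 medium cultures and 1519, 1468 and 1670 CPM in WT GM-CSF cultures (log2 -1.15 ± 0.05). Ctsh, an aminopeptidase among the cathepsins, had 144, 142 and 132 CPM in WT EMT6 medium cultures and 303, 311 and 308 CPM in WT GM-CSF cultures (log2 -1.14 ± 0.05). Cathepsins of the same protease family thus moved in opposite directions. Ctsd had 2609, 2691 and 2648 CPM in WT EMT6 medium cultures and 2704, 2686 and 2902 CPM in WT GM-CSF cultures, groups that overlapped. Ctsk overlapped too, at 39.0, 36.2 and 36.1 CPM in WT EMT6 medium cultures and 34.4, 38.5 and 34.5 CPM in WT GM-CSF cultures.

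Where the label was Cysltr1-/-, EMT6 medium raised Ctsl less. It had 3254, 3589 and 3784 CPM there, against 1440, 1386 and 1520 CPM with GM-CSF alone (log2 1.29 ± 0.05). Ctsb had 2073, 2076 and 2108 CPM, against 1867, 1797 and 1855 CPM, and its small rise (log2 0.18 ± 0.04) changed sign with DESeq2 size factors and each time 1 of the 6 compared libraries was left out. Ctss fell to 374, 422 and 404 CPM, against 1406, 1368 and 1461 CPM (log2 -1.82 ± 0.05). Ctsd fell to 1681, 1755 and 1730 CPM, against 2777, 2715 and 2868 CPM (log2 -0.69 ± 0.04). Of the 9 proteases 7 fell in cultures labelled Cysltr1-/- and 3 fell in WT. Of the better expressed genes 70.4% and 73.1% fell in the same comparisons, so the 7 of 9 lay near that share.

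Glycosidases held the deepest fall in WT and 2 clear rises. Man2b1 (chr8:85083270-85098282, plus strand, mm10) had 190, 183 and 183 CPM in WT EMT6 medium cultures and 1032, 1094 and 967 CPM in WT GM-CSF cultures (log2 -2.48 ± 0.05, adjusted p = 7.82e-36, edgeR quasi-likelihood test). For cultures labelled Cysltr1-/-, it had 115, 121 and 104 CPM, against 508, 502 and 492 CPM (log2 -2.15 ± 0.05). The groups were far apart in both genotypes. Gla (chrX:134588149-134601125, minus strand, mm10) had 256, 253 and 247 CPM in WT EMT6 medium cultures and 125, 128 and 128 CPM in WT GM-CSF cultures (log2 0.99 ± 0.05). In cultures labelled Cysltr1-/- Gla had 188, 190 and 186 CPM, against 87.0, 93.0 and 93.8 CPM (log2 1.04 ± 0.05). Neu1, a sialidase, rose by 0.74 ± 0.05 in cultures labelled Cysltr1-/- and 0.57 ± 0.05 in WT. Glb1, the acid beta-galactosidase, fell by 1.49 on the log2 scale in cultures labelled Cysltr1-/- and by 1.00 in WT, and Gusb fell by 1.52 in cultures labelled Cysltr1-/- and by 0.82 in WT. Hexa, a subunit of beta-hexosaminidase, did not pass the test in WT.

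Among lipid-handling genes Npc2 rose in both genotypes. It had 1721, 1739 and 1650 CPM in WT EMT6 medium cultures and 781, 751 and 802 CPM in WT GM-CSF cultures (log2 1.13 ± 0.04). Among the cultures labelled Cysltr1-/-, its rise was 0.73 ± 0.04. Lipa rose in WT by 0.67 ± 0.05, with 404, 352 and 387 CPM against 238, 256 and 224 CPM. Under the Cysltr1-/- label, Lipa changed by -0.11 ± 0.05, a value that turned positive with library sizes alone. Asah1, the acid ceramidase, fell by 1.47 on the log2 scale in cultures labelled Cysltr1-/- and by 0.94 in WT. Grn had 814, 792 and 803 CPM in WT EMT6 medium cultures and 1385, 1403 and 1303 CPM in WT GM-CSF cultures (log2 -0.76 ± 0.04). It had 575, 549 and 563 CPM against 1206, 1203 and 1176 CPM in cultures labelled Cysltr1-/- (log2 -1.09 ± 0.04). Psap had 10685, 10272 and 10683 CPM in WT EMT6 medium cultures and 14471, 14837 and 14134 CPM in WT GM-CSF cultures, a change of -0.46 on the log2 scale that became 0.04 with library sizes alone.

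Membrane proteins moved apart as well. Cd68 had 1044, 980 and 973 CPM in WT EMT6 medium cultures and 542, 532 and 456 CPM in WT GM-CSF cultures (log2 0.97 ± 0.06). Where the label was Cysltr1-/-, it had 574, 675 and 689 CPM, against 415, 398 and 415 CPM (log2 0.66 ± 0.06). Cd63 had 382, 374 and 364 CPM in WT EMT6 medium cultures and 240, 231 and 247 CPM in WT GM-CSF cultures (log2 0.64 ± 0.04), and its libraries overlapped in cultures labelled Cysltr1-/- (log2 0.02). Mcoln1 had 138, 119 and 132 CPM in WT EMT6 medium cultures and 90.7, 91.8 and 73.9 CPM in WT GM-CSF cultures (log2 0.61 ± 0.06). Its rise in cultures labelled Cysltr1-/- was 0.77 ± 0.07, with 108, 101 and 110 CPM against 61.1, 65.0 and 61.3 CPM. Lamp1 had 1388, 1313 and 1326 CPM in WT EMT6 medium cultures and 1145, 1155 and 1082 CPM in WT GM-CSF cultures (log2 0.25 ± 0.04), a call lost without replicate 1 of WT EMT6 medium (log2 0.09, adjusted p = 0.0830, edgeR quasi-likelihood test). For cultures labelled Cysltr1-/-, Lamp1 had 758, 829 and 815 CPM, against 898, 890 and 889 CPM (log2 -0.16 ± 0.05), and its sign turned with library sizes alone. Laptm5, a membrane protein of blood cell lysosomes, fell by 1.14 in cultures labelled Cysltr1-/- and by 1.00 in WT on the log2 scale. Scarb2, the receptor that brings beta-glucocerebrosidase to the lysosome, fell by 0.81 in cultures labelled Cysltr1-/- and by 0.67 in WT.

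The pump subunits did not move as a block. Atp6v0d2 (chr4:19876841-19922605, minus strand, mm10), which IL-6 had raised, had 75.4, 69.6 and 70.2 CPM in WT EMT6 medium cultures and 182, 192 and 183 CPM in WT GM-CSF cultures (log2 -1.37 ± 0.05). In cultures labelled Cysltr1-/- it had 47.5, 50.6 and 45.9 CPM, against 217, 212 and 232 CPM (log2 -2.20 ± 0.06). Atp6v0d1 had 259, 254 and 256 CPM in WT EMT6 medium cultures and 339, 328 and 321 CPM in WT GM-CSF cultures (log2 -0.36 ± 0.04, but 0.14 with library sizes alone). Among the cultures labelled Cysltr1-/-, Atp6v0d1 had 154, 161 and 162 CPM, against 269, 262 and 265 CPM (log2 -0.74 ± 0.05). Atp6v1a, the catalytic subunit, and Atp6v1h, a regulatory subunit, rose in WT by 0.33 ± 0.05 and 0.48 ± 0.05. Under the Cysltr1-/- label, Atp6v1h did not pass the test, and the 0.11 of Atp6v1a changed sign with DESeq2 size factors and in each fit that left out 1 of the 6 compared libraries. Tfeb itself had 88.5, 83.0 and 82.6 CPM in WT EMT6 medium cultures and 67.1, 69.1 and 71.8 CPM in WT GM-CSF cultures (log2 0.29 ± 0.05). That call was lost without replicate 1 of WT EMT6 medium (log2 0.12, adjusted p = 0.0697, edgeR quasi-likelihood test). Where the label was Cysltr1-/-, Tfeb had 83.2, 84.5 and 81.1 CPM, against 54.5, 50.1 and 51.3 CPM (log2 0.67 ± 0.05).

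Under TMM scaling more lysosome genes were lower than higher in the cultures labelled Cysltr1-/-, most of all with EMT6 medium. With GM-CSF alone 4 genes were higher and 20 lower than in WT, against 10.1% and 17.2% of all genes tested and 17.8% and 38.3% of the better expressed genes. With IL-6 3 genes were higher and 20 lower, against 12.1% and 18.4% of all genes tested and 11.9% and 42.2% of the better expressed genes. With EMT6 medium 34 of 35 genes were lower and 0 higher, against 32.3% higher and 19.8% lower of all genes tested and 15.3% higher and 46.2% lower of the better expressed genes. DESeq2 called 0 members higher and 35 lower there, and Tfeb, the gene that edgeR did not call, had an unadjusted p of 0.563 in edgeR's quasi-likelihood test. The members' median log2 difference was -0.15 with GM-CSF alone, -0.17 with IL-6 and -0.58 with EMT6 medium. The same median over the better expressed genes was -0.09, -0.12 and -0.15. Calls that held in all 9 settings were 14 of the 20 lower genes with GM-CSF alone, 13 of 20 with IL-6 and 31 of 34 with EMT6 medium. With EMT6 medium, library sizes alone moved the differences by 0.24 on the log2 scale and DESeq2 size factors by -0.10. With library sizes alone, 12 genes were higher and 14 lower with GM-CSF alone, and 8 higher and 13 lower with IL-6. The percentages of genes called higher or lower above are those of TMM scaling and do not apply to these counts. The share of gene counts given above, which uses library sizes, was 3.24% in GM-CSF cultures labelled Cysltr1-/- and 3.08% in WT, and 3.67% in IL-6 cultures labelled Cysltr1-/- and 3.66% in WT.

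**Figure D4:**
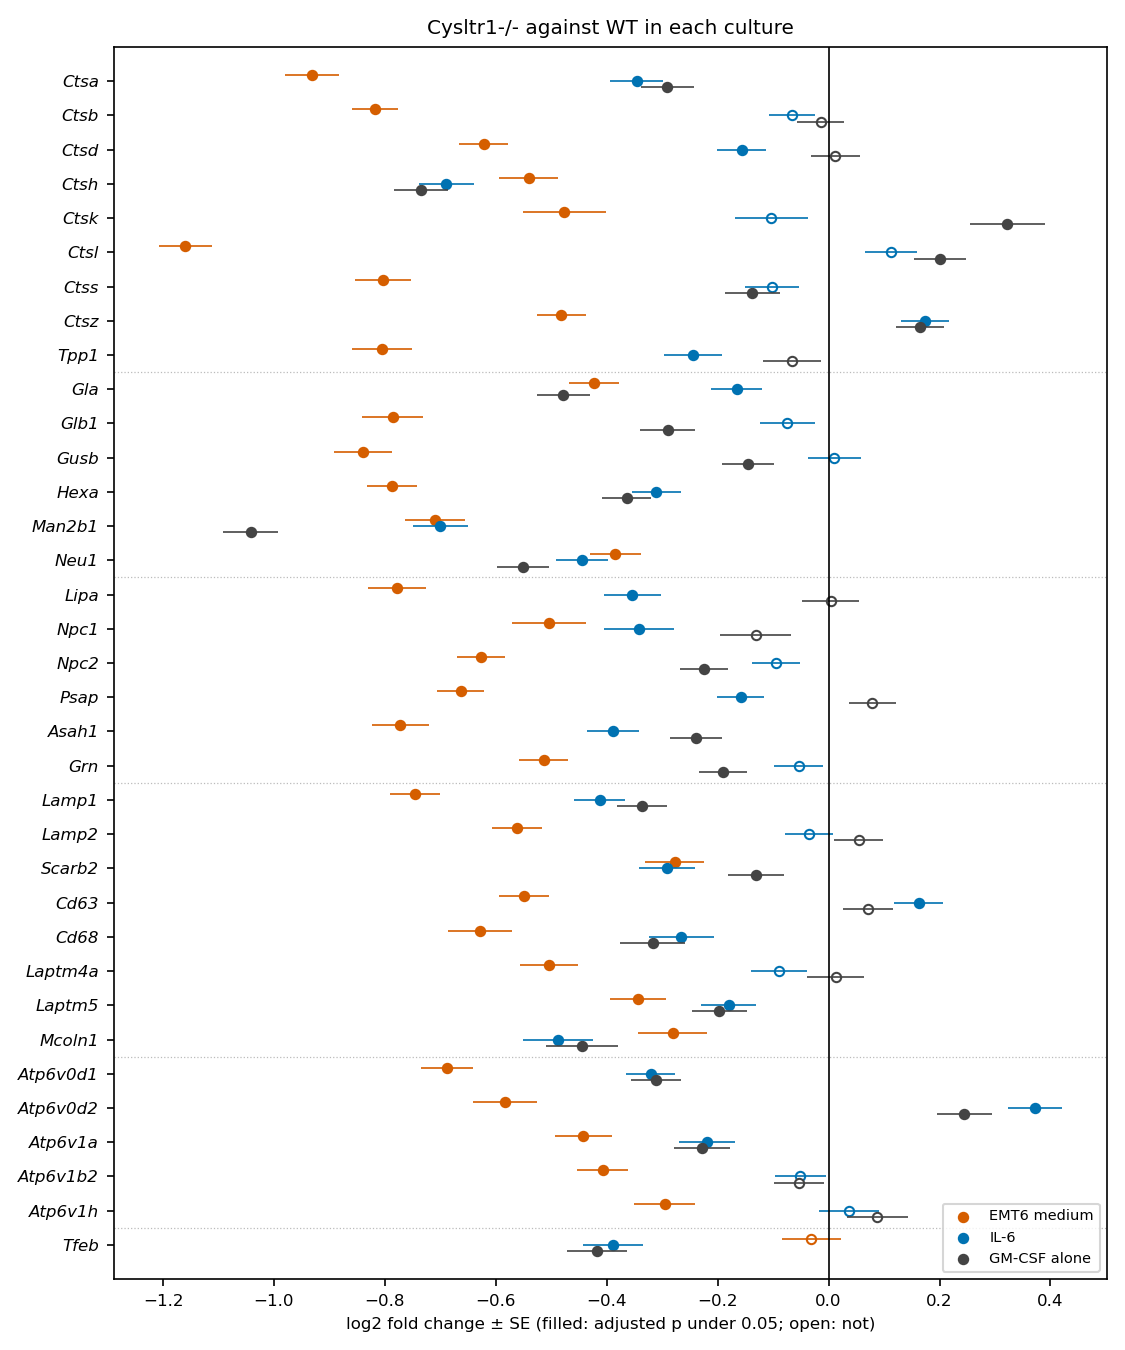
Log2 differences (x axis) of the 35 lysosome genes between cultures labelled Cysltr1-/- and WT with EMT6 medium, IL-6 or GM-CSF alone, in rows ordered by role with dotted lines between roles. Bars are standard errors and filled points have an adjusted p under 0.05; with EMT6 medium every gene lies below 0, and Tfeb at -0.03 is the open point.

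Man2b1 and Ctsh were lower in cultures labelled Cysltr1-/- under all 3 conditions, in each of the 9 settings. So were Asah1, Atp6v0d1, Ctsa, Hexa, Lamp1 and Neu1. The Man2b1 levels printed above gave log2 differences of -1.04 ± 0.05 with GM-CSF alone, -0.70 ± 0.05 with IL-6 and -0.71 ± 0.05 with EMT6 medium. In IL-6 cultures Man2b1 had 547, 525 and 537 CPM in those labelled Cysltr1-/- and 857, 910 and 847 CPM in WT. Ctsh had 186, 177 and 191 CPM in GM-CSF cultures labelled Cysltr1-/- and 303, 311 and 308 CPM in WT GM-CSF cultures (log2 -0.73 ± 0.05). Its difference was -0.69 ± 0.05 with IL-6 and -0.54 ± 0.05 with EMT6 medium. The libraries of the 2 genotypes did not overlap for either gene. Neu1 had 149, 150 and 149 CPM in GM-CSF cultures labelled Cysltr1-/- and 221, 223 and 212 CPM in WT GM-CSF cultures (log2 -0.55 ± 0.05), and it was also lower with IL-6 and EMT6 medium. Mcoln1 had 75.2, 69.6 and 69.1 CPM in IL-6 cultures labelled Cysltr1-/- and 104, 101 and 95.1 CPM in WT IL-6 cultures (log2 -0.49 ± 0.06). Ctsa, a carboxypeptidase that also protects Neu1 and Glb1, had 444, 510 and 495 CPM in EMT6 medium cultures labelled Cysltr1-/- and 931, 912 and 921 CPM in WT EMT6 medium cultures (log2 -0.93 ± 0.05).

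A few members were higher in cultures labelled Cysltr1-/-. Atp6v0d2 was higher with GM-CSF alone (log2 0.24 ± 0.05) and with IL-6 (0.37 ± 0.05), and lower with EMT6 medium (-0.58 ± 0.06). Ctsk was higher with GM-CSF alone, at 43.9, 41.1 and 49.3 CPM against 34.4, 38.5 and 34.5 CPM in WT (log2 0.32 ± 0.07). Ctsl was higher there by 0.20 ± 0.05. Ctsz, a carboxypeptidase, had 1464, 1448 and 1503 CPM in IL-6 cultures labelled Cysltr1-/- and 1290, 1354 and 1270 CPM in WT IL-6 cultures (log2 0.17 ± 0.04). With GM-CSF alone the 0.16 of Ctsz lost its call without replicate 3 of the GM-CSF cultures labelled Cysltr1-/- (0.13, adjusted p = 0.0698) or replicate 2 of WT GM-CSF (0.13, adjusted p = 0.0505, edgeR quasi-likelihood test). Cd63 was higher with IL-6, at 315, 311 and 318 CPM against 277, 283 and 284 CPM (log2 0.16 ± 0.04). With EMT6 medium, where none was higher, the largest differences were those of Ctsl (-1.16 ± 0.05), Ctsa and Gusb. Gusb had 57.0, 58.2 and 61.0 CPM in EMT6 medium cultures labelled Cysltr1-/- and 110, 100 and 105 CPM in WT EMT6 medium cultures (log2 -0.84 ± 0.05).

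Whether EMT6 medium acted differently in the 2 genotypes was tested by the interaction term of the same fit, a difference of 2 log2 changes. It was negative for 27 members, positive for 3 and not called for 5. Of all genes tested 13.2% had a positive and 12.3% a negative call, and of the better expressed genes 20.9% and 29.2%. The members' median was -0.42, against -0.06 over the better expressed genes. Ctsl had the largest value, -1.36 ± 0.07 (adjusted p = 1.81e-20, edgeR quasi-likelihood test), as its rise in cultures labelled Cysltr1-/- was smaller than in WT. Atp6v0d2 had -0.83 ± 0.08. Ctsb, with the second smallest p after Ctsl, had -0.80 ± 0.06, and Psap, with the third smallest p, had -0.74 ± 0.06. Psap had 6980, 6613 and 6379 CPM in EMT6 medium cultures labelled Cysltr1-/- and 15616, 15093 and 15158 CPM in GM-CSF cultures of the same label. The positive calls were Man2b1 (0.33), Tfeb (0.39) and Ctsh (0.19), of which Ctsh turned to -0.04 without a low-count filter and lost its call in all 12 fits that left out 1 compared library. The Man2b1 call was lost without replicate 2 of the EMT6 medium cultures labelled Cysltr1-/- (0.19, adjusted p = 0.0615) or replicate 2 of WT GM-CSF (0.19, adjusted p = 0.0547, edgeR quasi-likelihood test). The negative calls of 26 members held in all 9 settings and none of the positive ones did. The no-feature share of reads also differed most between the genotypes with EMT6 medium, and subtracting an even background left 27 negative and 4 positive calls. The part of that share in the result was otherwise not tested.

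For IL-6 the interaction was called for only 6 members, 3 positive and 3 negative, beside 2.92% and 4.46% of all genes tested and 6.31% and 10.9% of the better expressed genes. Man2b1 had 0.34 ± 0.07, Lipa had -0.36 ± 0.07 and Gla had 0.31 ± 0.07 on the log2 scale. Man2b1 fell with IL-6 in WT, while its change in cultures labelled Cysltr1-/- was 0.10 and did not pass the test. Ctsk (-0.43), Psap (-0.24) and Glb1 (0.22) were the others, and Glb1 lost its call in 10 of the 12 fits that left out 1 compared library. The Psap call was lost without replicate 1 of the GM-CSF cultures labelled Cysltr1-/- (-0.21, adjusted p = 0.0517, edgeR quasi-likelihood test).

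A wider list of 107 other genes, of which 106 could be tested, was read for context. It held further lysosome genes, sorting receptors, the cystatins, and relatives of Tfeb with nutrient-sensing genes. With IL-6 in WT 33 rose and 18 fell, beside 23.3% and 24.0% of the better expressed genes. With EMT6 medium in WT 33 rose and 56 fell, beside 16.5% and 73.1% of the better expressed genes and 46.8% and 34.5% of all genes tested. With EMT6 medium 4 of them were higher and 90 lower in cultures labelled Cysltr1-/- than in WT, beside 15.3% and 46.2% of the better expressed genes. With GM-CSF alone 4 were higher and 66 lower, beside 17.8% and 38.3%. The cystatins, inhibitors of the cathepsins, split in WT with EMT6 medium, 6 of 8 rising and 2 falling. Cst3, a secreted cystatin, had 512, 513 and 451 CPM in WT EMT6 medium cultures and 2728, 2554 and 2688 CPM in WT GM-CSF cultures (log2 -2.43 ± 0.05). With IL-6 it had 1194, 1227 and 1171 CPM in WT (log2 -1.15 ± 0.05). Stfa3, a cytosolic stefin, had 401, 449 and 381 CPM in WT EMT6 medium cultures and 89.0, 85.9 and 112 CPM in WT GM-CSF cultures, but its family holds near-identical copies among which reads may be split.

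Several other hydrolases moved by large amounts with EMT6 medium in WT. Ctsc, the protease that activates granule serine proteases, had 137, 132 and 132 CPM in WT EMT6 medium cultures and 953, 974 and 937 CPM in WT GM-CSF cultures (log2 -2.84 ± 0.05). Gm2a, the activator of ganglioside breakdown, had 424, 402 and 404 CPM, against 1799, 1856 and 1763 CPM (log2 -2.14 ± 0.05). Ids, the iduronate sulfatase, changed by -2.47 ± 0.08. Nagpa, an enzyme that finishes the mannose 6-phosphate tag for lysosomal delivery, changed by -2.33 ± 0.06, and the pump subunit gene Atp6v0a1 by -1.71 ± 0.06. Rises in the same comparison included Hyal1, a hyaluronidase (1.10 ± 0.07), Acp5, the tartrate-resistant acid phosphatase (1.11 ± 0.07), and Slc11a1, a metal exporter of the phagosome. Slc11a1 had 240, 224 and 244 CPM in WT EMT6 medium cultures and 51.2, 53.2 and 50.8 CPM in WT GM-CSF cultures (log2 2.19 ± 0.06). With IL-6 in WT the largest rises of these lists included Lgmn, the asparaginyl endopeptidase (0.61 ± 0.05), Hyal1 (0.75 ± 0.07), Cd164 (0.57 ± 0.04) and the sorting receptor Igf2r (0.58 ± 0.07). Napsa, an aspartic protease, fell by 0.85 on the log2 scale.

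Within the wider list, 16 genes were relatives of Tfeb and the nutrient-sensing genes that act on it. Their calls are part of the counts given above for that list. In WT with EMT6 medium 6 of the 16 rose and 8 fell, beside 16.5% and 73.1% of the better expressed genes and 46.8% and 34.5% of all genes tested. Rragd, a GTPase that brings the kinase mTORC1 to the lysosome, had 47.6, 45.7 and 50.9 CPM in WT EMT6 medium cultures and 11.1, 12.3 and 11.1 CPM in WT GM-CSF cultures (log2 2.07 ± 0.07). Tfec, a Tfeb relative expressed in macrophages, had 20.8, 22.2 and 19.1 CPM in WT EMT6 medium cultures and 105, 104 and 112 CPM in WT GM-CSF cultures (log2 -2.37 ± 0.06). Tfe3, another relative, did not pass the test in WT (log2 0.02). It was lower in cultures labelled Cysltr1-/- than in WT by 0.82 to 1.06 on the log2 scale in the 3 conditions, a gene singled out after its values were seen.

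Cell type markers also changed in these comparisons, and in bulk samples fewer cells of a type and less RNA per cell cannot be told apart. With EMT6 medium in WT 16.5% of the better expressed genes rose and 73.1% fell. Of all genes tested 46.8% rose and 34.5% fell. The falls among macrophage and monocyte markers lay near the 73.1% of the better expressed genes. Of 10 macrophage markers such as Adgre1, Csf1r and Mrc1, 2 rose and 8 fell with EMT6 medium in WT, and their summed level was 1234 to 1320 CPM in WT EMT6 medium cultures and 2559 to 2739 CPM in WT GM-CSF cultures. Of 11 neutrophil markers 1 rose and 10 fell there, with sums of 4142 to 4552 CPM against 13934 to 14778 CPM. Of 8 dendritic cell markers 7 fell there, with sums of 1184 to 1281 CPM against 9579 to 9930 CPM. Of 6 monocyte markers 2 rose and 4 fell there, with sums of 378 to 404 CPM against 5082 to 6470 CPM. The 8 osteoclast markers, of which 3 rose and 4 fell, summed to 425 to 450 CPM against 726 to 802 CPM. They include the member Ctsk, and Mmp9, which is also among the 11 neutrophil markers. All 5 B cell markers rose, with sums of 716 to 760 CPM against 290 to 294 CPM. Of 5 epithelial markers 2 rose and 2 fell, with sums of 39.2 to 42.8 CPM against 818 to 881 CPM. The keratin genes among them lay near the floor. Evenly spread stray reads would make up 17.5% (Krt18) to 79.2% (Krt19) of their counts in WT GM-CSF libraries, against 0.0592% for Cdh1. In WT EMT6 medium libraries the values were 15.5% (Krt18) to 127% (Krt19), against 4.70% for Cdh1. With IL-6 in WT 7 of the 8 dendritic cell markers fell, with sums of 5277 to 5591 CPM against 9579 to 9930 CPM. In the same comparison 9 of the neutrophil markers fell and 2 rose, with sums of 9866 to 10351 CPM against 13934 to 14778 CPM. Of the better expressed genes 24.0% fell and 23.3% rose with IL-6 in WT. Between genotypes, all 11 neutrophil markers were lower in cultures labelled Cysltr1-/- with GM-CSF alone, with sums of 6095 to 6385 CPM against 13934 to 14778 CPM. Of 5 eosinophil markers 3 were lower there, with sums of 158 to 178 CPM against 582 to 663 CPM. Of the better expressed genes 38.3% were lower and 17.8% higher in that comparison. With EMT6 medium the macrophage markers summed to 680 to 743 CPM in cultures labelled Cysltr1-/- and 1234 to 1320 CPM in WT. Between these genotypes 4 of the 10 genes were higher and 4 lower, beside 15.3% and 46.2% of the better expressed genes. Of 6 stromal markers all 6 rose with EMT6 medium in WT, with sums of 36.3 to 40.8 CPM against 8.00 to 12.7 CPM, but evenly spread stray reads would make up 18.4% (Dcn) to 66.8% (Col3a1) of their counts in WT EMT6 medium libraries. No marker of these lists was at 0 throughout a group. The part of these shifts in the lysosome gene levels was not tested.

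Some of the 35 genes share exon bases with a neighbour. Counted reads could be uncertain for Ctsb, whose exons overlap Fdft1 on the other strand (at most 2158 counts in a library), for Npc1 and Rmc1 (1705), Ctsa and Pltp (1542) and Ctsz and Nelfcd (1119), since the strand setting of the counting is not given in the sources used here. Glb1 overlaps Tmppe on the same strand (at most 446 counts).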

How the data were processed

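The authors deposited whole-number read counts per feature for each of 18 libraries. HISAT2 2.1.0, HTSeq 0.13.5 and mm10 are named per the submitters' processing notes. A deposited table of normalized values was not used here. The annotation and strand setting are not given in the sources used here. Poly(A) libraries were made with an NEBNext kit, per the labels' protocols. Of 55536 gene IDs, 55450 had a symbol in GENCODE M21. Library sizes and tests left out 26248 entries with a number for a name (0.0399% to 0.446% of a library's features), the 5 summary lines, and 97 spike-ins, which held 0 reads.

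Counts were fitted with edgeR 4.0.16 in R 4.3.3 (TMM, filterByExpr, quasi-likelihood F test) with 1 mean per group over all 18 libraries, with Benjamini-Hochberg adjustment over the 28334 genes kept, separately for 9 comparisons. Called means an adjusted p under 0.05. The SE of a log2 fold change was its size over the square root of F. The spread between replicates (common BCV) was 0.048. Replicates within a group differed beyond sampling noise (chi-square per degree of freedom from 1.64 to 7.51). Each counted as 1 sample, though this spread cannot show that they came from separate cultures. Libraries held 9.58 to 32.0 M gene counts.

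The members, the wider lists and the tests were chosen with earlier results of these data known. Values per library are given for the 3 largest called rises and falls of each culture and genotype comparison, the 3 interactions of smallest p and 12 genes of the main roles, and for other lists the largest called change in each direction. The alternatives were DESeq2 1.42.0, its size factors, library sizes alone, no filter, a filter at a mean of 5 CPM in the highest group, a replicate block, only the groups compared, a background subtracted by exon length, each library left out (filtered and scaled anew) and a required log2 change of 1 in either direction.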

Additional observations from a re-analysis of the deposited data

Results flagged for a closer look

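The response to EMT6 medium differed between the genotypes by the interaction term (adjusted p under 0.05, edgeR's quasi-likelihood test) for 30 of 35 lysosome genes. Of the better expressed genes 20.9% had a positive and 29.2% a negative call. The members' values are the log2 change in cultures labelled Cysltr1-/- minus that in WT. Below 0 were Ctsl -1.36, Atp6v0d2 -0.83, Ctsb -0.80, Ctsk -0.80, Lipa -0.78, Psap -0.74, Tpp1 -0.74, Gusb -0.69 and Ctss -0.67. Smaller values below 0 were Ctsz -0.65, Ctsa -0.64, Ctsd -0.63, Cd63 -0.62, Lamp2 -0.62, Asah1 -0.53, Laptm4a -0.52, Glb1 -0.50 and Hexa -0.42. The remaining values below 0 were Lamp1 -0.41, Npc2 -0.40, Atp6v1h -0.38, Atp6v0d1 -0.38, Npc1 -0.37, Atp6v1b2 -0.35, Grn -0.32, Cd68 -0.31 and Atp6v1a -0.21. Above 0 were Ctsh 0.19, Man2b1 0.33 and Tfeb 0.39, and the Ctsh call was lost in each of the 12 fits that left out 1 library of the groups compared.

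The response to IL-6 differed between the genotypes for 6 genes, with log2 differences in the same sense. The 6 genes were Ctsk -0.43, Lipa -0.36, Psap -0.24, Glb1 0.22, Gla 0.31 and Man2b1 0.34. The Glb1 call was lost in 10 of the 12 fits that left out 1 library of the groups compared.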

How the results depend on the processing

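When a change of 1 or more on the log2 scale, in either direction, was also required, the calls were 1 with IL-6 in cultures labelled Cysltr1-/- (1 higher, 0 lower), 1 with IL-6 in WT (1 higher, 0 lower), 11 with EMT6 medium in cultures labelled Cysltr1-/- (2 higher, 9 lower) and 6 with EMT6 medium in WT (2 higher, 4 lower). Between genotypes they were 1 with GM-CSF alone (0 higher, 1 lower), 0 with IL-6 and 1 with EMT6 medium (1 lower). The interactions gave 0 for IL-6 and 1 for EMT6 medium (0 higher, 1 lower). Shares over all genes are not given for this rule or the settings below. These counts therefore show only how the members' calls moved. With IL-6 in cultures labelled Cysltr1-/-, 3 genes were lower under DESeq2, its size factors, a filter at 5 CPM or only the groups compared, and 11 were higher under the size factors. With EMT6 medium in cultures labelled Cysltr1-/-, 14 were higher with the 5 CPM filter, and 15 higher and 15 lower with library sizes alone. In WT 24 were higher and 10 lower under a filter at 5 CPM and with library sizes alone. Between genotypes with GM-CSF alone, 7 were higher after background subtraction, 8 with the 5 CPM filter or no filter and 12 with library sizes alone. With library sizes alone 8 were higher and 13 lower with IL-6, and 1 (Tfeb) higher with EMT6 medium. The IL-6 interaction had 7 negative calls under DESeq2 and 6 without a filter, and 5 positive with the 5 CPM filter or library sizes alone and 6 with only the groups compared. The EMT6 medium interaction had 5 positive calls with the 5 CPM filter, 6 with library sizes alone and 0 without a filter.

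Signs turned for some genes with EMT6 medium. In WT, with the 5 CPM filter and with library sizes alone, Atp6v0d1 had log2 changes of 0.13 and 0.14, Atp6v1b2 0.27 and 0.27, Ctsa 0.15 and 0.16, Lamp2 0.29 and 0.30, Npc1 0.32 and 0.33, and Psap 0.0355 and 0.0410. After background subtraction Atp6v1b2 had 0.0366, Lamp2 0.0587 and Npc1 0.0715. In cultures labelled Cysltr1-/-, under DESeq2, its size factors and no filter, Atp6v1a had -0.16 in each and Ctsb -0.0897, -0.0859 and -0.0945, and Atp6v1a had -0.01305 with only the groups compared. There, with the 5 CPM filter and library sizes alone, Ctsz had 0.11 and 0.20, Hexa 0.0697 and 0.15, Lamp1 0.38 and 0.46 and Lipa 0.43 and 0.51. Lamp1 had 0.15 and Lipa 0.18 after background subtraction, and with library sizes alone Atp6v1b2 had 0.0398, Laptm4a 0.0237 and Npc1 0.0715. The EMT6 medium interaction of Ctsh was -0.0373 without a filter. DESeq2 size factors and library sizes alone moved all members' EMT6 medium changes by nearly the same amount. So did the 5 CPM filter, by 0.4904 to 0.4934 in WT and 0.5359 to 0.5368 in cultures labelled Cysltr1-/-. Without a filter the shifts were -0.2775 to -0.2741 in cultures labelled Cysltr1-/- and -0.2345 to -0.2287 for the interaction. Background subtraction gave 0.2444 to 0.2652 in WT and 0.2475 to 0.3117 in cultures labelled Cysltr1-/-. The cause of the turns under DESeq2 itself and with only the groups compared was not tested.

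With 1 library left out, calls ranged from 12 to 15 with IL-6 in cultures labelled Cysltr1-/- (11 to 14 higher, 1 lower), from 19 to 20 with IL-6 in WT (17 to 18 higher, 2 lower), from 32 to 34 with EMT6 medium in cultures labelled Cysltr1-/- (7 higher, 25 to 27 lower) and from 29 to 33 with EMT6 medium in WT (11 to 14 higher, 15 to 20 lower). Between genotypes they ranged from 21 to 23 with GM-CSF alone (3 to 4 higher, 17 to 20 lower), stayed at 23 with IL-6 (3 higher, 20 lower) and ranged from 34 to 35 with EMT6 medium (0 higher). The interactions ranged from 4 to 6 for IL-6 (2 to 3 positive, 2 to 4 negative) and from 28 to 31 for EMT6 medium (1 to 3 positive, 26 to 29 negative). The rises with IL-6 in cultures labelled Cysltr1-/- came to 11 without replicate 2 of the GM-CSF cultures of that label. The positive EMT6 medium interactions came to 1 without replicate 2 of the EMT6 medium cultures labelled Cysltr1-/- or replicate 2 of WT GM-CSF. In cultures labelled Cysltr1-/- the EMT6 medium change of Atp6v1a ranged from -0.15 to -0.0700 and that of Ctsb from -0.0681 to -0.0278. Of 218 called changes 23 lost a call or turned sign in at least 1 such fit.

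The numbers of the libraries did not pair them: the deviations of same-numbered libraries correlated between -0.0958 and 0.133 over 45 pairs, with a median of 0.00513. With the replicate number as a block, the count of lower genes between genotypes with GM-CSF alone was 19 in place of 20, and the other counts of calls were the same. Depth was lowest in the EMT6 medium libraries labelled Cysltr1-/-, which averaged 10.9 M gene counts, against 15.9 M in WT EMT6 medium libraries and 23.1 to 26.7 M in the other groups.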
